A study of Mus musculus with 14 samples.

Results

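The aminoacyl-tRNA synthetase genes were followed across 14 microarrays of BH1-Bcl2-Ik1ER cells. The set was chosen by symbol, as every gene with a probe set of its own whose symbol is a single letter for the amino acid followed by "ars" (with a suffix 1, 2, a or b where present) or is Eprs. It held 34 of the 19938 genes measured, and the brightest probe set stood for each gene. Of 37 RefSeq symbols that match, 3 had no probe set of their own. The cytosolic alanine enzyme Aars was left out, since its probe set is shared with Exosc6, and the set holds no aspartate enzyme. A suffix 2 marks an enzyme of the mitochondrion, which split the set into 18 cytosolic and 16 mitochondrial genes.

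BH1 is a mouse pre-B cell line that lacks functional Ikaros, a DNA-binding regulator of lymphocyte development. All cells measured carried 2 retroviruses and had been sorted by FACS for both. One encodes the survival protein Bcl2, and the other encodes Ikaros joined to an estrogen receptor domain, a protein activated with 4-hydroxytamoxifen (4OHT, 100 nM). IL-7, the growth factor of early B cells, was supplied as 8% medium conditioned by J558L cells that overexpress it, and withdrawal meant culture without that medium, so anything else it brings was withdrawn too. The 7 groups comprised time 0, 6 h of 4OHT plus IL-7, 6 h of 4OHT minus IL-7, 24 h with IL-7 alone, 24 h with IL-7 and 4OHT, 24 h with neither, and 24 h with 4OHT without IL-7. Cells at time 0 were in the IL-7 medium, without 4OHT. Each group had 2 arrays, 1 from each of 2 independent experiments in the same line, so n = 2 for every group value. There was no 6 h group without 4OHT, so at 6 h 4OHT and time in culture cannot be told apart. Cells lacking the fusion were not measured, so the effect of 4OHT itself cannot be told apart from that of Ikaros activity.

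Aminoacyl-tRNA synthetases join each amino acid to its tRNAs and so supply the ribosome with its substrates. The cytosol and the mitochondrion use separate sets of enzymes, nearly all encoded in separate nuclear genes. Gars and Kars are exceptions, since each encodes both forms, and Qars has no mitochondrial counterpart, because mitochondrial glutaminyl-tRNA is made by Ears2 and an amidotransferase. Several cytosolic enzymes (Eprs, Iars, Kars, Lars, Mars1, Qars and Rars among the genes measured) sit in a multisynthetase complex held by the scaffold proteins Aimp1, Aimp2 and Eef1e1. Genes of many cytosolic enzymes are known targets of ATF4, the transcription factor of the amino acid response, and of MYC, which drives growth of cycling lymphocytes.

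Values are log2 signals, so a difference of -1 is a halving. Array medians lay between 7.227 and 7.425, and over all probe sets the arrays within a group had correlations of 0.9933 to 0.9965. Of 13 markers of B lineage precursors 10 lay above the median of all values (7.326), among them Cd79a, Pax5 and Vpreb1, while Rag1, Rag2 and Dntt did not. Above the same median lay 2 of 8 T cell, 1 of 7 myeloid, 1 of 3 erythroid, 2 of 4 plasma cell and 3 of 5 stromal markers. All 34 synthetase genes had means above the median, and their values ran from 7.55 to 11.94. The shares of all genes given below include dimmer genes. They are lower than the shares in a fit of the 10470 genes with means above the median. Probe sets of different genes are not compared in level. A gene passed at an adjusted p under 0.05 (limma, Benjamini-Hochberg over all 19938 genes, two-sided), and the median standard error (SE) of a synthetase difference was 0.0909. Signals are relative to the other RNA on each array, so fewer cells of a type and less RNA per cell cannot be told apart.

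Withdrawal of IL-7 for 6 h, with 4OHT in both arms, was accompanied by lower signal of most cytosolic synthetases. Of the 18 cytosolic genes 14 fell and none rose, where 7.48% of all genes fell and 6.78% rose. In the fit of the 10470 genes above the median 1570 fell and 1540 rose, with 14 cytosolic genes again lower. The cytosolic median difference was -0.634, beside 0.031 for all genes. It was -0.663 within experiment 1 and -0.586 within experiment 2, and 17 of the 18 genes were lower in both experiments. Class I enzymes, whose catalytic domain is a Rossmann fold, fell in 8 of 10 cases and class II enzymes in 6 of 8, with Eprs, which carries a domain of each class, counted in class I.

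Among the enzymes of the multisynthetase complex 6 of 7 fell. Iars, the isoleucine enzyme, was read at 11.55 and 11.57 with IL-7 (experiments 1 and 2) and at 10.69 and 10.75 without it. Both arrays without IL-7 thus lay well below both with it, and the difference was -0.84 ± 0.09 (SE; adjusted p = 3.9e-05), a signal decreased by 44.1%. The second Iars probe set, which was not used in the counts, read 11.271 and 11.304 with IL-7 and 10.433 and 10.5 without it. Mars1, the methionine enzyme, was read at 10.39 and 10.49 with IL-7 and at 9.52 and 9.76 without it. Its groups did not overlap and differed by -0.80 ± 0.10 (adjusted p = 0.000171). Eprs, the enzyme for glutamate and proline, went from 11.02 and 10.82 to 10.24 and 10.16, again without overlap (-0.72 ± 0.09, adjusted p = 0.000131). Kars, Lars and Rars, for lysine, leucine and arginine, fell by 0.64, 0.63 and 0.60. The exception was Qars, the glutamine enzyme, at 11.60 and 11.43 with IL-7 and 11.67 and 11.44 without it, with overlapping groups and a difference of 0.04 ± 0.09 (adjusted p = 0.893).

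Outside the complex 8 of 11 cytosolic genes fell. Farsb, the beta subunit of the phenylalanine enzyme, was read at 10.68 and 10.43 with IL-7 and at 9.84 and 9.68 without it, with no overlap (-0.80 ± 0.12, adjusted p = 0.000727). Its partner subunit Farsa fell by 0.55, from 10.53 on both arrays to 9.94 and 10.01. Tars and Wars, for threonine and tryptophan, fell by 0.77 and 0.74, and Vars, Gars, Yars and Nars, for valine, glycine, tyrosine and asparagine, by 0.65 to 0.45. The serine enzyme Sars lay at the other end, with 11.37 and 11.42 with IL-7 and 11.25 and 11.36 without it. These arrays were close but in order, and the difference of -0.09 ± 0.07 did not pass (adjusted p = 0.565). Cars, for cysteine, differed by -0.17 ± 0.15 with overlapping groups (adjusted p = 0.641). Hars, for histidine, read 10.26 and 9.82 with IL-7 against 9.68 and 9.50 without it and missed the threshold (-0.45 ± 0.16, adjusted p = 0.086). It passed with the experiment as a block (-0.45 ± 0.09, limma adjusted p = 0.00235).

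The mitochondrial enzymes were divided. Of 16 genes 6 fell and none rose, with a median of -0.285, and 15 were lower in both experiments. Ears2, the glutamate enzyme, showed the largest difference of all 34 genes. It was read at 8.60 and 8.44 with IL-7 and at 7.59 and 7.57 without it (-0.94 ± 0.09, adjusted p = 2.61e-05), a signal decreased by 48.0%. Nars2, for asparagine, went from 9.63 and 9.57 to 8.69 and 8.73 (-0.89 ± 0.09, adjusted p = 3.04e-05). Yars2, for tyrosine, went from 10.19 and 9.98 to 9.23 and 9.27 (-0.84 ± 0.10, adjusted p = 0.000132). In these 3 genes the arrays without IL-7 lay clear of those with it. Rars2, Vars2 and Tars2 fell by 0.64, 0.41 and 0.37. The remaining 10 did not pass, and their differences ran from -0.29 (Lars2 and Iars2) to 0.31 (Fars2). Fars2, the phenylalanine enzyme, was the gene with higher signal after withdrawal on both arrays, at 9.74 and 9.72 against 9.37 and 9.48. Its difference of 0.31 ± 0.10 missed the threshold (adjusted p = 0.0576) and passed with the experiment as a block (adjusted p = 0.0153), as did the lower values of Iars2 (adjusted p = 0.00787) and Pars2 (adjusted p = 0.0475).

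With each of the 4 compared arrays left out in turn, 16 of the 20 calls at 6 h were kept. Kars, Nars and Tars were lost without the array of experiment 1 with IL-7 or without that of experiment 2 lacking IL-7, with adjusted p up to 0.0946, 0.0905 and 0.074. Tars2 was lost without the array of experiment 1 with IL-7 (adjusted p = 0.06). Kars and Tars2 also missed the threshold in a fit of the compared arrays alone.

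**Figure D1:**
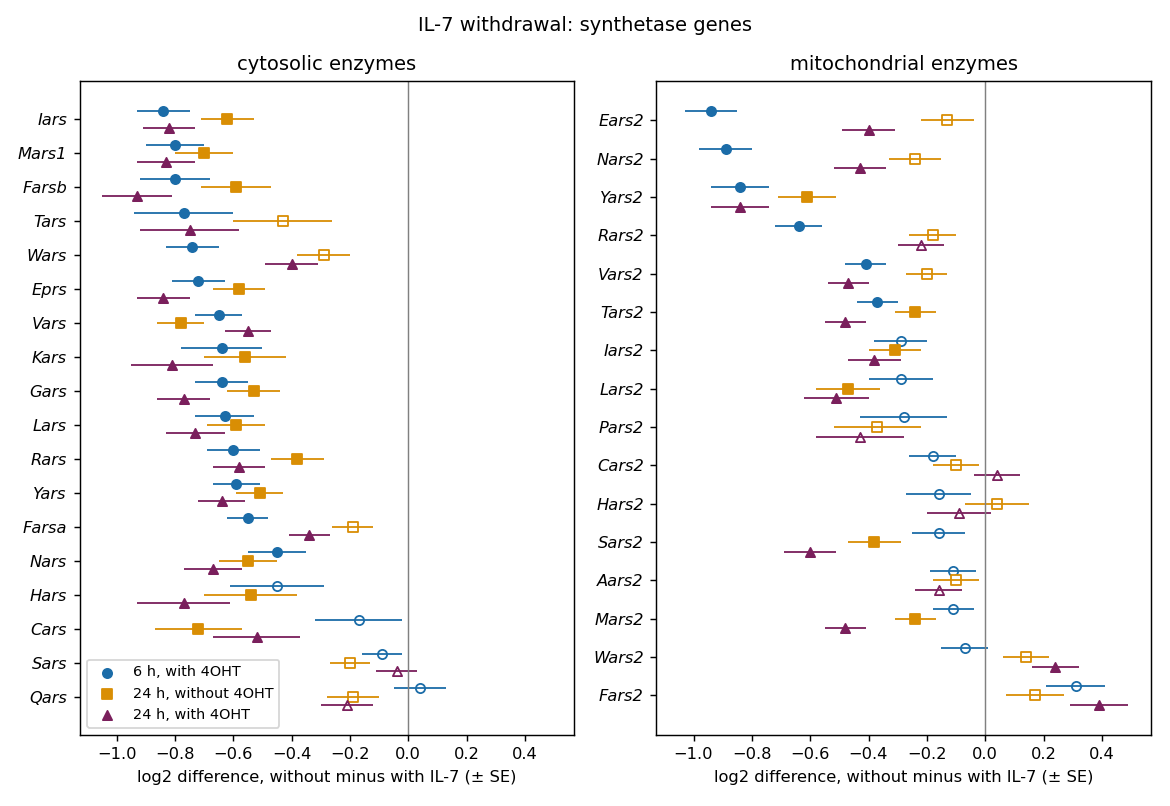
Log2 difference without minus with IL-7 (horizontal axis, ± SE) of the 18 cytosolic and 16 mitochondrial synthetase genes at 6 h with 4OHT (circles), 24 h without 4OHT (squares) and 24 h with 4OHT (triangles); filled symbols passed at an adjusted p under 0.05. Most cytosolic genes lie left of 0 in all 3 comparisons, Sars and Qars lie near 0, and Fars2 and Wars2 reach values right of 0.

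Because most cytosolic genes fell together, the RefSeq promoters (assembly GRCm38.p6, 250 bases before to 50 after the annotated start) were searched on both strands for CACGTG, the E-box bound by MYC, and TGATGNAAN, the C/EBP-ATF response element (CARE) bound by ATF4. Promoters were found for 25 of the 34 genes, 11 cytosolic and 14 mitochondrial. The 120 bases upstream of the start are printed for 4 cytosolic genes that held a motif and for Eprs and Sars, which held none, one that fell and one that did not pass. Capitals mark the motif letters within this stretch.
Farsb (chr1:78488898-78489017, minus strand): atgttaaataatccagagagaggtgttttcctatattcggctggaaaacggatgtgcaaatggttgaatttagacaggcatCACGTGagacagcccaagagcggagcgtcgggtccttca
Gars (chr6:55037881-55038000, plus strand): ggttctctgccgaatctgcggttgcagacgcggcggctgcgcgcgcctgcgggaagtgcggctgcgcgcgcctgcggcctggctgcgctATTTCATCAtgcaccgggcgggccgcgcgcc
Iars (chr13:49682010-49682129, plus strand): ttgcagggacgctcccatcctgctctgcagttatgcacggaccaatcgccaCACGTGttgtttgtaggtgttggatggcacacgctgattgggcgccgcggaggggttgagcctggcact
Tars (chr15:11399659-11399778, minus strand): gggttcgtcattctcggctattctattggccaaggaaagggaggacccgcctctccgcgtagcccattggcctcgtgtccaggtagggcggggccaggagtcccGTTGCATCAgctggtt
Eprs (chr1:185362924-185363043, plus strand): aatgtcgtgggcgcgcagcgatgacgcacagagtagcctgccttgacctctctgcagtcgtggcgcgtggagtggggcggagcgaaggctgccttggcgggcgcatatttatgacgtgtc
Sars (chr3:108445260-108445379, minus strand): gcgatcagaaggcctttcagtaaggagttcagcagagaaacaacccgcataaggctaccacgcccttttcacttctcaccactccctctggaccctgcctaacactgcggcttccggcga

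A CARE match stood in 4 of the 11 cytosolic promoters (36.4%), in none of the 14 mitochondrial genes' promoters and in a promoter of 4.5% of the 27025 genes in the table. Its first base lay at position -31 in Gars and -16 in Tars, both on the opposite strand as printed above, and past the start in Iars (position 6) and Yars (position 3), with the start as position 0. E-boxes stood in 3 cytosolic promoters (27.3%), at -39 in Farsb, -69 in Iars and 19 in Tars, in that of Ears2 among the mitochondrial genes (position 21; 7.14%), and in a promoter of 8.09% of all genes. The motifs do not overlap in these promoters. At 6 h without IL-7 all 4 genes with a CARE match fell (-0.84 to -0.59), and so did 5 of the 7 matched cytosolic genes without one. All 3 cytosolic genes with an E-box fell (-0.84 to -0.77), and so did 6 of 8 without one. Eprs fell with neither motif in its window, and Qars and Sars, which did not pass, held neither motif as well. Whether a match bears on the fall was not tested. These matches describe letters in the window and are not measured binding.

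After 24 h without 4OHT the cytosolic genes were again lower without IL-7 than with it, in arrays that the 6 h comparison did not use. Of 18 genes 13 fell and none rose (8.78% of all genes fell and 11.2% rose), with a median of -0.545 beside -0.012 for all genes. In the fit of the 10470 genes above the median 1827 fell and 2470 rose, with 16 of the 18 cytosolic genes lower. All 18 were lower in both experiments, and the median was -0.57 in experiment 1 and -0.494 in experiment 2. In the complex 6 of 7 fell, with Qars again the exception (-0.19 ± 0.09, adjusted p = 0.188).

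Vars showed the largest fall at this point, from 11.20 and 11.29 with IL-7 to 10.41 and 10.53 without it (-0.78 ± 0.08, adjusted p = 3.92e-05). Cars went from 9.91 on both arrays to 9.01 and 9.37 (-0.72 ± 0.15, adjusted p = 0.00534), and Mars1 from 10.90 and 10.87 to 10.12 and 10.24 (-0.70 ± 0.10, adjusted p = 0.000381). The groups of each gene were apart, although the Cars arrays without IL-7 differed widely from each other. Tars (-0.43 ± 0.17), Wars (-0.29 ± 0.09) and Farsa (-0.19 ± 0.07), which had fallen at 6 h, did not pass (adjusted p = 0.103, 0.0521 and 0.0707). With the experiment as a block all 3 passed, at 0.0081, 0.0104 and 0.0455.

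Among the mitochondrial genes 6 of 16 fell, with a median of -0.219. Yars2 went from 10.22 and 10.11 to 9.52 and 9.59 (-0.61 ± 0.10, adjusted p = 0.00102). Lars2, for leucine, went from 9.22 and 9.06 to 8.56 and 8.79 (-0.47 ± 0.11, adjusted p = 0.0121), and Sars2, for serine, from 9.78 and 9.77 to 9.33 and 9.46 (-0.38 ± 0.09, adjusted p = 0.0103). Groups did not overlap in any of these. The others were Iars2, Tars2 and Mars2, at -0.31 to -0.24. Ears2, the gene with the largest difference at 6 h, was at 8.22 and 8.09 with IL-7 and 7.98 and 8.08 without it (-0.13 ± 0.09, adjusted p = 0.444). With the experiment as a block Nars2, Pars2 and Vars2 passed too (-0.24, -0.37 and -0.20; adjusted p = 0.0336, 0.00899 and 0.0275).

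Of these 19 calls 10 were kept with each compared array left out in turn. Fewer of all genes passed in these fits too. Cars and Sars2 were lost without the experiment 1 array lacking IL-7, and Lars2 without either experiment 1 array. Hars, Iars2, Kars, Mars2, Rars and Tars2 were each lost in 2 to 4 of the 4 cases, and Mars2 and Tars2 also in a fit of the compared arrays alone. Mars2 was lost under a trended, robust prior as well.

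With 4OHT present, 24 h without IL-7 gave the widest set of calls. Of the 18 cytosolic genes 16 fell and none rose (11.5% of all genes fell, 12.8% rose). Their median was -0.698 beside 0.058 for all genes, and -0.589 and -0.771 within experiments 1 and 2. In the fit of the 10470 genes above the median 2357 fell and 2504 rose, with 16 cytosolic genes again lower. Farsb went from 10.54 and 10.49 with IL-7 to 9.74 and 9.43 without it (-0.93 ± 0.12, adjusted p = 0.000134), a signal decreased by 47.6%. Eprs went from 10.98 and 11.06 to 10.25 and 10.11 (-0.84 ± 0.09, adjusted p = 2.27e-05). Yars2 went from 10.02 and 10.00 to 9.27 and 9.08 (-0.84 ± 0.10, adjusted p = 7.53e-05). All arrays without IL-7 lay below those with it in these 3 genes. Mars1, Iars, Kars, Hars, Gars, Tars and Lars fell by 0.83 to 0.73. Qars, at 11.68 and 11.59 against 11.49 and 11.36, did not pass (-0.21 ± 0.09, adjusted p = 0.122) but did with the block (adjusted p = 0.0283). Sars differed by -0.04 ± 0.07 (adjusted p = 0.738), with overlapping groups.

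Among the mitochondrial genes 9 fell and 2 rose, with a median of -0.412. Besides Yars2 these were Sars2 (-0.60 ± 0.09, adjusted p = 0.000413), Lars2, Mars2, Tars2, Vars2, Nars2, Ears2 and Iars2, at -0.51 to -0.38. Fars2 rose, from 9.45 and 9.61 with IL-7 to 9.97 and 9.86 without it (0.39 ± 0.10, adjusted p = 0.0107). Wars2, for tryptophan, rose from 9.08 on both arrays to 9.31 and 9.32 (0.24 ± 0.08, adjusted p = 0.0412). Both genes were higher on each array without IL-7. Pars2 (-0.43 ± 0.15) and Rars2 (-0.22 ± 0.08) did not pass (adjusted p = 0.0523 and 0.0672) but did with the block (0.00298 and 0.0279). Of the 27 calls 20 were kept with each compared array left out in turn. Wars2 and Cars were lost in all 4 cases (adjusted p up to 0.146 and 0.136). Ears2 and Fars2 were lost without either experiment 1 array (up to 0.0706 and 0.106). Iars2 was lost without the experiment 1 array with IL-7 or the experiment 2 array lacking it (up to 0.0933), and that last array also decided Tars (0.051) and Wars (0.084). Wars2 also missed the threshold in a fit of the compared arrays alone and under a trended, robust prior, and Cars after renewed quantile normalization.

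The withdrawal at 6 h and that at 24 h without 4OHT share no array. They had 13 falling genes in common, 65.0% of the 20 at 6 h and 68.4% of the 19 at 24 h. Over all genes 814 that fell were shared, 54.6% of the 1492 at 6 h and 46.5% of the 1750 at 24 h. All 19 genes that fell at 24 h without 4OHT also fell at 24 h with it, where they made up 76.0% of the 25. Over all genes 88% of those that fell at 24 h without 4OHT also fell with it, 67.1% of the latter. The 13 genes that fell in all 3 comparisons were 11 cytosolic (Eprs, Farsb, Gars, Iars, Kars, Lars, Mars1, Nars, Rars, Vars and Yars) and 2 mitochondrial (Tars2 and Yars2). In none of the 3 comparisons fell Qars and Sars, and the mitochondrial Aars2, Cars2, Fars2, Hars2, Pars2 and Wars2. Under the experiment block 21 genes fell in all 3, 15 cytosolic (with Farsa, Hars, Tars and Wars added) and 6 mitochondrial (with Iars2, Nars2, Pars2 and Vars2 added), and Qars fell in 1. The share of all genes that fell in all 3 was not counted, so neither the 13 nor the 21 can be read against it. The comparisons take each gene's spread from 1 fit, so a gene with a small spread passes more readily in each.

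**Figure D2:**
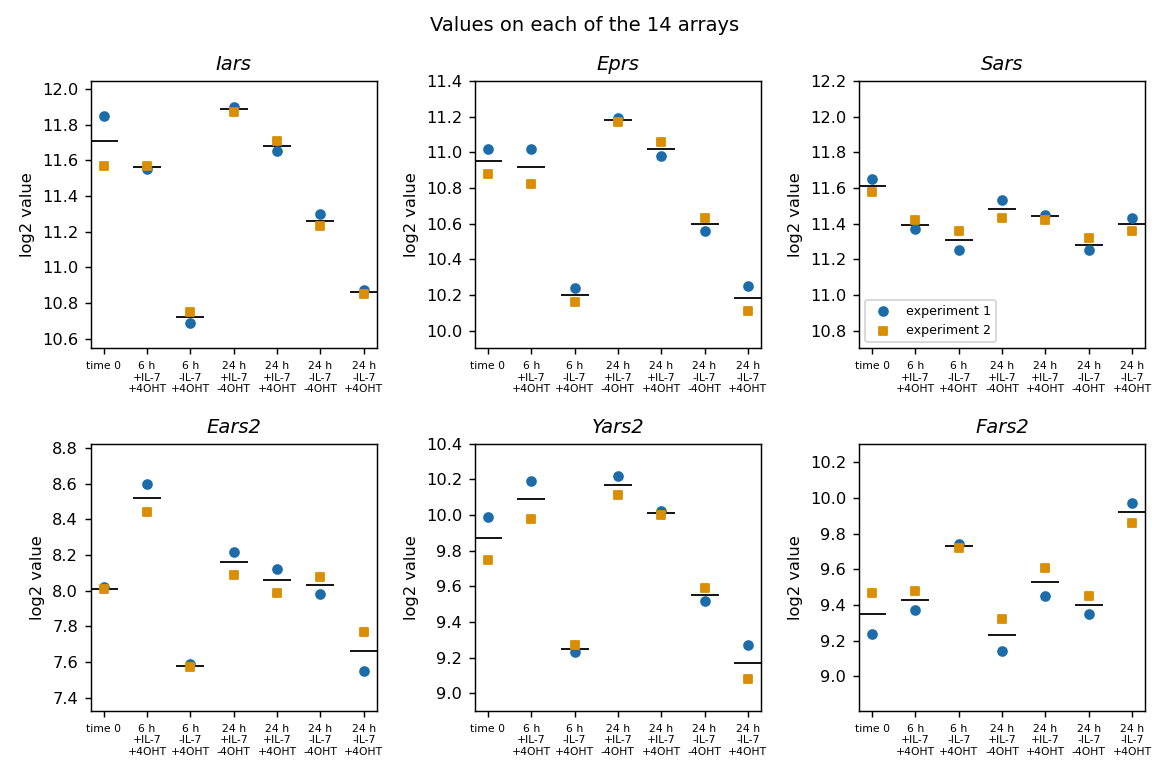
Log2 value (vertical axis, each panel spanning the same range of 1.5) of Iars, Eprs, Sars, Ears2, Yars2 and Fars2 in each of the 7 groups (horizontal axis), with 1 point per experiment and a bar at the group mean. Iars, Eprs and Yars2 are lowest in groups without IL-7, Sars varies little, and Fars2 is highest at 24 h with 4OHT without IL-7.

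Set against time 0, the median of the cytosolic genes stayed near the starting signal as long as IL-7 was present. Single genes moved, from -0.56 (Cars) to 0.40 (Wars) at 6 h under 4OHT plus IL-7. The cytosolic median difference from time 0 was -0.01 in that group (99.0% of the time 0 signal). It was 0.17 at 24 h with IL-7 alone (112%) and 0.05 at 24 h with IL-7 and 4OHT. Without IL-7 it was -0.54 at 6 h with 4OHT (68.9%), -0.41 at 24 h without 4OHT (75.5%) and -0.67 at 24 h with 4OHT (62.9%). No cytosolic gene had its lowest mean in a group with IL-7, time 0 included. The lowest mean was at 24 h with 4OHT without IL-7 for 9 of the 18, at 6 h for 6 and at 24 h without 4OHT for 3. Mars1 spanned the widest range, from 9.64 at 6 h without IL-7 to 10.88 at 24 h with IL-7 alone, a 2.37-fold difference in signal. The mitochondrial medians moved less, to -0.22 (85.7%), -0.11 (92.8%) and -0.39 (76.5%) in the same 3 groups without IL-7.

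**Figure D3:**
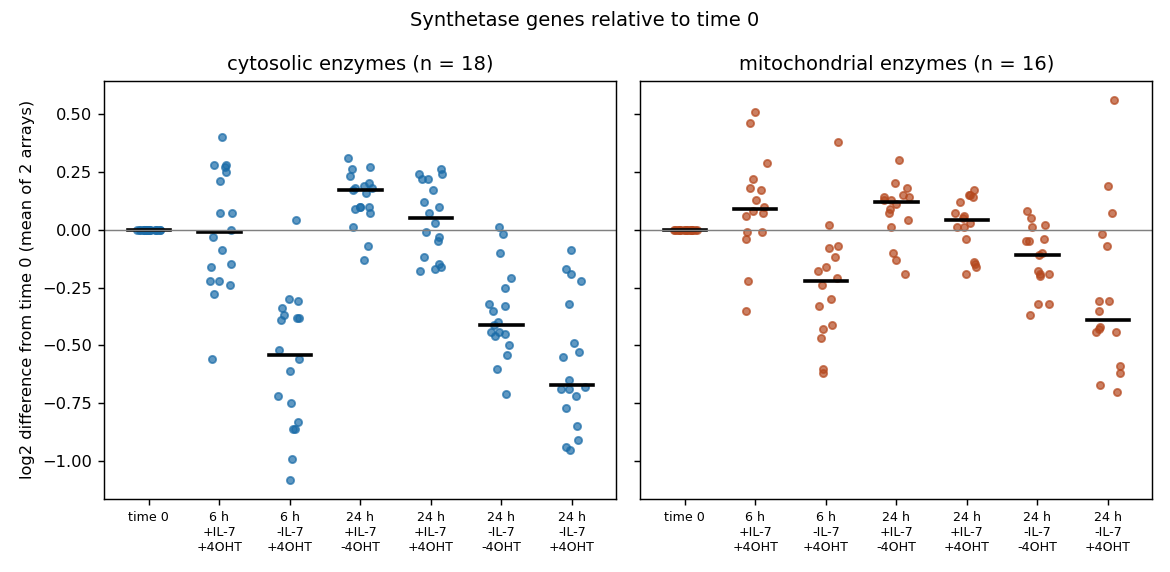
Difference of each gene's group mean from its time 0 mean (vertical axis, log2; 1 point per gene, side-to-side position arbitrary) in the 7 groups, for 18 cytosolic and 16 mitochondrial synthetase genes, with a bar at the median. The cytosolic medians are -0.54, -0.41 and -0.67 in the groups without IL-7 and between -0.01 and 0.17 in the others; the mitochondrial medians follow with smaller differences.

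Culture for 6 h with 4OHT and IL-7 moved single genes up and down relative to time 0. In this comparison 4OHT and time in culture cannot be told apart. Among the cytosolic genes Wars, Vars and Farsa rose (0.40, 0.28 and 0.25) and Cars fell, and among the mitochondrial genes Ears2 and Rars2 rose and Mars2 fell, where 3.92% of all genes rose and 4.85% fell. Ears2 went from 8.02 and 8.01 at time 0 to 8.60 and 8.44 (0.51 ± 0.09, adjusted p = 0.00344), Rars2 from 9.78 and 9.76 to 10.30 and 10.15 (0.46 ± 0.08, adjusted p = 0.00262), and Wars from 10.81 and 10.58 to 11.18 and 11.01 (adjusted p = 0.0196). Cars went from 10.00 and 9.80 to 9.19 and 9.50 (-0.56 ± 0.15, adjusted p = 0.0444), and Mars2 from 9.46 and 9.45 to 9.10 and 9.11 (-0.35 ± 0.07, adjusted p = 0.00654). None of these groups overlapped. The arrays at 6 h with IL-7 are also the reference of the 6 h withdrawal. Ears2 and Rars2 were high in that reference, and without IL-7 at 6 h they stood at 7.59 and 7.57, and at 9.62 and 9.56, below time 0 by less than below the reference.

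The count of 7 depended on the fit. With the experiment as a block 11 passed, 3 lower and 8 higher, where 8.21% of all genes fell and 6.83% rose, and Aars2, Farsb, Nars2 and Rars were added. The count was 2 in a fit of the compared arrays alone, where 884 of all genes passed, beside 1748 in the fit of all arrays. Fewer of all genes also passed in each fit that left out 1 compared array. Ears2, Rars2 and Mars2 were kept with each compared array left out in turn, while Farsa and Vars were lost in all 4 cases, Cars in 3 and Wars in 2. Cars was also lost after renewed quantile normalization.

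After 24 h with IL-7 alone no synthetase gene had changed from time 0 by limma's test, where 0.737% of all genes rose and 2.36% fell. At an unadjusted p under 0.05 there were 9, beside 3349 of all 19938 genes. The cytosolic median was 0.166, and the differences of all 34 genes ran from -0.19 (Wars2) to 0.31 (Kars). Under the experiment block 3 genes rose, Farsb (0.27, adjusted p = 0.0451), Wars (0.26, adjusted p = 0.041) and Yars2 (0.30, adjusted p = 0.0379), where 3.16% of all genes rose. After renewed quantile normalization 2 rose, Farsa and Yars2, where 350 of all 19938 genes rose.

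Addition of 4OHT for 24 h, the step that activates the Ikaros fusion, left the cytosolic genes without a call as long as IL-7 was present. None of the 18 passed in limma, where 3.94% of all genes fell and 5.22% rose, and none passed with the experiment as a block. At an unadjusted p under 0.05 there were 3, beside 4572 of all 19938 genes. The cytosolic median was -0.077 beside -0.037 for all genes. Of the mitochondrial genes Mars2 and Tars2 fell. Mars2, the methionine enzyme, went from 9.71 and 9.60 without 4OHT to 9.28 and 9.25 with it (-0.39 ± 0.07, adjusted p = 0.00369). Tars2, the threonine enzyme, went from 10.52 on both arrays to 10.25 and 10.23 (-0.28 ± 0.07, adjusted p = 0.0312). Both genes were lower on each array with 4OHT, but Tars2 was lost whichever of the 4 compared arrays was left out (adjusted p = 0.0871 to 0.147) and in a fit of those arrays alone. Fars2 was higher with 4OHT (9.45 and 9.61 against 9.14 and 9.32) and passed only with the block (0.30 ± 0.08, adjusted p = 0.0242; adjusted p = 0.0844 without it).

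Without IL-7, 4OHT moved more genes. Among the cytosolic genes 4 fell and 1 rose, and among the mitochondrial genes 5 fell and 1 rose, where 8.17% of all genes fell and 7.1% rose. In the fit of the 10470 genes above the median 1666 fell and 1459 rose. There 7 cytosolic genes fell and 1 rose, and 5 mitochondrial genes fell and 1 rose. The cytosolic median was -0.272 beside 0.014 for all genes, at -0.173 in experiment 1 and -0.326 in experiment 2. Mars2 went from 9.38 and 9.45 to 8.77 and 8.80 (-0.63 ± 0.07, adjusted p = 5.66e-05), Tars2 from 10.25 and 10.31 to 9.76 on both arrays (-0.52 ± 0.07, adjusted p = 0.000328), and Gars from 10.89 and 10.95 to 10.46 and 10.43 (-0.48 ± 0.09, adjusted p = 0.00291). Groups did not overlap in these genes. Eprs, Mars1 and Iars fell by 0.41, 0.41 and 0.40, and Yars2, Ears2 and Vars2 by 0.38, 0.37 and 0.32. Fars2 rose from 9.35 and 9.45 to 9.97 and 9.86 (0.52 ± 0.10, adjusted p = 0.00274), and Vars from 10.41 and 10.53 to 10.79 and 10.70 (0.28 ± 0.08, adjusted p = 0.0295).

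These counts moved with the experiment. As a block it raised the 11 calls to 20, of which 18 were lower and 2 higher, where 11.5% of all genes fell and 11% rose. It added 7 cytosolic genes (Farsb, Kars, Lars, Nars, Rars, Tars and Yars, at -0.41 to -0.25) and the mitochondrial Iars2 and Nars2. Fewer of all genes passed in each fit that left out 1 compared array. Mars2, Tars2, Gars and Fars2 were kept with each compared array left out, while Eprs, Mars1, Iars, Ears2, Vars, Vars2 and Yars2 were lost in 1 to 3 of the 4 cases (adjusted p up to 0.055, 0.111, 0.0649, 0.14, 0.239, 0.0764 and 0.163).

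**Figure D4:**
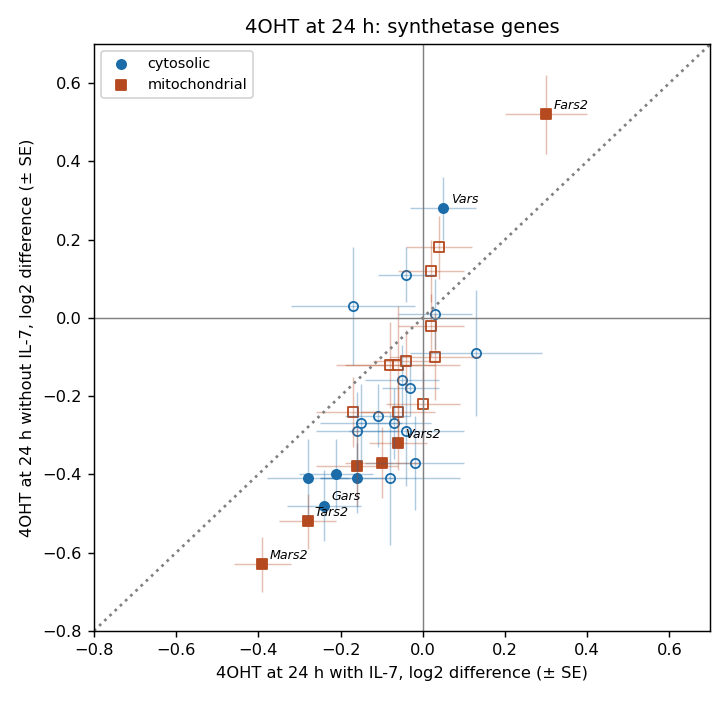
Effect of 4OHT at 24 h on the 34 synthetase genes with IL-7 (horizontal axis) and without it (vertical axis), as log2 differences ± SE; filled symbols passed without IL-7 and the dotted line marks equal effects. Mars2 and Tars2 are low and Fars2 is high on both axes, and most other genes lie below the line.

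A larger effect of 4OHT without IL-7 than with it was not established for any single synthetase gene. In the interaction of both treatments none of the 34 passed in limma, with or without the experiment as a block. Without the block 0.617% of all genes were lower and 0.0702% higher than the sum of the separate effects. At an unadjusted p under 0.05 there were 3 (Vars2, Mars2 and Tars2), beside 1826 of all 19938 genes. The interaction ran from -0.35 ± 0.17 in Farsb (adjusted p = 0.581) to 0.23 ± 0.11 in Vars (adjusted p = 0.571). The cytosolic median was -0.142 beside 0.031 for all genes, at -0.037 in experiment 1 and -0.254 in experiment 2.

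Under 4OHT the difference made by IL-7 withdrawal could be compared between 24 h and 6 h. It differed for Ears2 alone, whose withdrawal difference was -0.94 at 6 h and -0.40 at 24 h (change 0.55 ± 0.13, adjusted p = 0.0301), where 3.65% of all genes had a lower and 1.36% a higher value at 24 h. The change was positive in both experiments (0.44 and 0.65). Its call was lost in 5 of 8 cases in which an array was left out (adjusted p up to 0.125) and in a fit of the compared arrays alone. These 5 were every 6 h array but that of experiment 2 with IL-7, and both 24 h arrays of experiment 2. With the experiment as a block Nars2 (0.46) and Rars2 (0.42) joined Ears2, and Mars2 (-0.36) and Sars2 (-0.44) went the other way, where 5.98% of all genes were lower and 3.91% higher.

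In the cells without IL-7 and with 4OHT, 24 h and 6 h differed in few genes. None of the cytosolic genes passed, and their differences ran from -0.18 to 0.17. None had an unadjusted p under 0.05 either, beside 4486 of all 19938 genes. Sars2 was lower at 24 h, with 9.13 and 9.21 against 9.70 and 9.68 (-0.52 ± 0.09, adjusted p = 0.00225). Cars2, for cysteine, was higher, with 9.71 and 9.83 against 9.46 and 9.47 (0.30 ± 0.08, adjusted p = 0.0234). Of all genes 6.81% were lower and 5.11% higher. Cars2 was lost without either 6 h array or without the 24 h array of experiment 2 (adjusted p up to 0.16). Vars2 was lower too with the experiment as a block (-0.20 ± 0.06, adjusted p = 0.0427).

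The partners of the synthetases were read from lists of other genes. Of the scaffolds of the multisynthetase complex, Eef1e1 went from 11.08 and 10.97 with IL-7 to 9.41 and 9.27 without it at 6 h (-1.69 ± 0.09, adjusted p = 4.41e-07), and Aimp2 from 10.18 and 9.81 to 8.61 and 8.47 (-1.45 ± 0.13, adjusted p = 1.33e-05). Aimp1 did not pass, with 9.70 and 9.46 against 9.68 and 9.26 (-0.11 ± 0.15, adjusted p = 0.805). At 6 h with IL-7, the reference here, Eef1e1 and Aimp2 stood above time 0 by 0.67 and 0.48 (adjusted p = 0.000504 and 0.038). Eef1e1 and Aimp2 also fell at 24 h without 4OHT (-0.86 and -0.99) and with it (-1.48 and -1.52), and with 4OHT in cells without IL-7 (-0.66 and -0.63), but not with 4OHT in the presence of IL-7 (-0.04 and -0.10).

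Of 9 other genes of tRNA charging and proofreading 4 fell at 6 h, where 7.48% of all genes fell and 6.78% rose. They were Trnt1, which adds the CCA end of tRNAs (-0.77), Dtd1, which removes D-amino acids (-0.69), Aarsd1, an alanyl-tRNA editing factor (-0.68), and Yrdc, which modifies tRNAs (-0.65). None of 4 genes of the mitochondrial amidotransferase and formylase passed then, and they lay between -0.29 and -0.15. At an unadjusted p under 0.05 there were 2, beside 4767 of all 19938 genes. At 24 h Gatb fell without and with 4OHT (-0.41 and -0.37), while Mtfmt, the formylase, rose (0.33 and 0.30). Of 9 mitochondrial translation factors 2 fell at 6 h, the elongation factors Gfm1 (-0.58) and Tsfm (-0.55), and both fell again at 24 h without and with 4OHT. Of 6 genes listed under cytosolic elongation 3 fell at 6 h, Eef1e1, Eif5a (-0.88) and Eef1d (-0.66). Eef1e1 is the scaffold above and so is counted in both lists. Eef1a1 and Eef2, which bring and move the tRNAs on the ribosome, lay at 0.00 and 0.02 and did not pass.

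Genes of the ATF4 and amino acid response did not all move one way. At 6 h 10 of 20 fell and 1 rose, with a median of -0.278, where 7.48% of all genes fell and 6.78% rose. The amino acid transporters Slc7a5 (-2.35) and Slc7a1 (-1.83), the serine pathway enzymes Phgdh (-1.47) and Shmt2 (-1.28), and Asns, asparagine synthetase (-1.35 ± 0.18, adjusted p = 0.000371), fell most. Asns went from 11.33 and 11.23 with IL-7 to 9.70 and 10.16 without it. Atf4 itself went from 9.28 and 9.34 to 9.04 and 9.01 (-0.29 ± 0.07, adjusted p = 0.0154). Ddit3, which encodes CHOP, rose (0.49 ± 0.11, adjusted p = 0.00855), and the ATF4 targets Chac1, Trib3 and Atf5 did not pass, at -0.14, 0.10 and 0.13. At 24 h the list had 10 lower and 1 higher both without and with 4OHT. Of all genes 8.78% fell and 11.2% rose without 4OHT, and 11.5% fell and 12.8% rose with it. Asns stood at -1.45 and -2.33. With 4OHT against without it in cells lacking IL-7, 9 of the 20 fell and none rose, where 8.17% of all genes fell and 7.1% rose.

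All 3 MYC factors fell at 6 h, where 7.48% of all genes fell. Myc went from 13.30 and 13.18 with IL-7 to 11.31 and 10.92 without it (-2.13 ± 0.11, adjusted p = 2.66e-07), and Mycn from 8.36 and 8.43 to 7.13 and 7.19 (-1.23 ± 0.09, adjusted p = 2.53e-06). Max, their dimer partner, fell by 0.48. The 6 h reference was itself above time 0 for all 3, by 0.72 for Myc, 1.24 for Mycn and 0.44 for Max (limma adjusted p = 0.000936, 4.2e-06 and 0.00116). The time 0 arrays read 12.55 and 12.49 for Myc, 7.19 and 7.12 for Mycn, and 10.86 on both for Max. At 24 h without 4OHT 1 of the 3 fell on withdrawal, Myc (-0.80), while Mycn (-0.18) and Max (0.03) did not pass. With 4OHT Myc (-3.27) and Mycn (-0.47) fell and Max (0.01) did not pass. Between 24 h and 6 h under 4OHT the withdrawal difference was lower for Myc (-1.14) and higher for Mycn (0.76) and Max (0.49). At 24 h Myc was 12.88 and 12.86 with IL-7 alone, 12.63 and 12.66 with IL-7 and 4OHT, 12.10 and 12.05 with neither, and 9.31 and 9.43 with 4OHT without IL-7. The last group lay far below all others, and the interaction passed for Myc (-2.47 ± 0.15, adjusted p = 3.05e-05), unlike that of any synthetase. In cells without IL-7, 4OHT went with a Myc difference of -2.70 ± 0.11 (limma adjusted p = 1.7e-08), and the cytosolic synthetase median was -0.272. Whether MYC or ATF4 bears on the synthetase values was not tested.

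Of 19 genes of RNA polymerase III and its factors, which transcribe tRNA genes, 7 fell and 1 rose at 6 h. Of all genes 7.48% fell and 6.78% rose then. The subunits Polr3e (-1.56), Polr3d (-1.09), Polr3g (-1.0), Polr3b (-0.62) and Polr3k (-0.38) fell, while Polr3gl, the alternative to Polr3g, rose (0.35). At 24 h 4 fell and 1 rose without 4OHT, where 8.78% of all genes fell and 11.2% rose. With 4OHT 6 fell and 2 rose, where 11.5% fell and 12.8% rose. The second gene that rose with 4OHT was Maf1, the repressor of RNA polymerase III (0.28). Polr3gl rose in both (0.60 and 0.48).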

How the data were processed

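The authors deposited a table of log2 values for 35556 probe sets on 14 arrays, made with Affymetrix Expression Console 1.1 and RMA per the submitters' processing notes, from 150 ng of total RNA per the labels' protocols. RMA corrects background, normalizes by quantiles and summarises probes, so each value is relative to the rest of its array. The genome build is not given in the sources used here, and no scanner intensities were used.

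Probe sets with 1 symbol (21789) were reduced to the brightest per gene, which left 19938 genes. Among the synthetases only Iars had several probe sets. Differences were fitted with limma 3.58.1 under R 4.3.3 (lmFit, then eBayes) over all 14 arrays with 1 mean per group. The fit had 7 residual and 4.83 prior degrees of freedom and no fold minimum. A run on simulated data drew noise independently for each array, so it did not cover the pairing described below. The p-values use the spread between the 2 arrays per group, from 2 experiments on 1 line. Same-numbered arrays deviated together in all 21 pairs of groups (correlation 0.124 to 0.631, median 0.392). The numbers mark independent experiments in the labels, so the number pairs the arrays. The counts, SEs and adjusted p leave this pairing out unless the block is named. The fit with that block stands beside a result where it changed the call. It kept all 89 calls of the fit without it and added others.

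Any synthetase could be named. Values per array were given for the 3 largest falls and rises that passed in each comparison and for genes at the other end. Of the partner lists Myc, Mycn, Atf4 and Asns were always named, plus up to 6 of the largest passing genes. The genes and lists were chosen with earlier results of these data known. Promoters came from RefSeq.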

Additional observations from a re-analysis of the deposited data

Results flagged for a closer look

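The Ears2 difference made by IL-7 withdrawal under 4OHT passed a test of change between 6 h and 24 h, but not in every fit. It was -0.94 at 6 h and -0.40 at 24 h, and the test of the change itself gave 0.55 ± 0.13 (limma adjusted p = 0.0301, n = 2 arrays per group). The array values at 6 h were 8.60 and 8.44 with IL-7 and 7.59 and 7.57 without it, and at 24 h 8.12 and 7.99 with IL-7 and 7.55 and 7.77 without it. Most of the change lies in the groups with IL-7, since the difference between 24 h and 6 h without IL-7 was 0.08 ± 0.09 (limma adjusted p = 0.722). The call was lost in 5 of 8 fits that left out an array (limma adjusted p up to 0.125) and in a fit of the compared arrays alone. The cause was not tested.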

How the results depend on the processing

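The 89 calls of single synthetase genes were repeated in 534 alternatives other than leaving out an array: 516 passed again and 18 did not, 14 of them in a fit of the compared arrays alone, 2 after quantile normalization and 2 under a trended, robust prior. The replicate block, the mean of probe sets and the removal of dim genes ended none. With an array left out 273 of 360 passed again. No direction reversed. Without 1 array the counts ran from 16 to 22 for withdrawal at 6 h, 11 to 19 at 24 h without 4OHT, 22 to 25 at 24 h with it, 3 to 5 at 6 h against time 0, 1 for 4OHT with IL-7, 6 to 14 for 4OHT without IL-7, 0 to 1 for withdrawal at 24 h against 6 h, and 1 to 2 for 24 h against 6 h without IL-7. The replicate block raised counts to 11 (6 h against time 0), 3 (24 h against time 0), 20 (4OHT without IL-7) and 5 (withdrawal, 24 h against 6 h). It also raised the 3 withdrawal counts. At 6 h 15 cytosolic and 8 mitochondrial genes fell and 1 rose, where 2003 of all 19938 genes fell and 2240 rose. At 24 h without 4OHT 16 and 9 fell (of all genes 2393 fell, 3106 rose). With 4OHT 17 and 11 fell and 2 rose (of all genes 2848 fell, 3722 rose). For 4OHT with IL-7, and for 24 h against 6 h without IL-7, 2 fell and 1 rose. Of all genes 1511 fell and 1813 rose in the former, and 1974 fell and 1753 rose in the latter. Quantile normalization gave 2 (24 h against time 0), 4 (withdrawal, 24 h against 6 h) and 4 (24 h against 6 h without IL-7). Of all 19938 genes 730, 1339 and 2866 passed in these fits. Without dim genes the withdrawal contrast of 24 h against 6 h had 4, where 1175 of 10470 genes passed. The compared arrays alone gave 2, 1, 0 and 1 for 6 h against time 0, 4OHT with IL-7, withdrawal at 24 h against 6 h, and 24 h against 6 h without IL-7. In the same order 884, 1322, 771 and 1494 of all 19938 genes passed. The causes were not tested. The number of arrays, 2 per group, limits the precision.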
